A study of Homo sapiens with 12 samples.

Results

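The genes described here are 38 genes of sugar metabolism and oxygen sensing, out of 60676 genes with a row in the count data. They are 19 enzymes of glycolysis, 4 carriers of glucose and lactate, 2 kinases of pyruvate dehydrogenase, the secreted protein gene ANGPTL4, 8 genes that respond to hypoxia, and 4 genes of oxygen sensing (2 HIF alpha subunits and 2 prolyl hydroxylases). They were chosen by symbol, each symbol matched 1 Ensembl gene, and all 38 were among the 16192 genes with enough counts to be tested. RNA was sequenced from A549, an established human lung adenocarcinoma line, in 12 libraries. The 4 groups of 3 libraries were LETS1 cells given TGF-β, Co.vec cells given TGF-β, LETS1 cells given ligand buffer, and Co.vec cells given ligand buffer. Per the labels, LETS1 cells carried a lentivirus for LETS1, a long non-coding RNA, and Co.vec cells the empty pCDH-EF1a-PURO vector. All groups had been transduced and selected with puromycin, and TGF-β was at 5 ng/mL for 4 h. The cells are selected populations, the labels do not say whether replicates came from separate transductions or cultures, and the p-values then measure only the spread between these libraries. The LETS1 transcript itself was not analysed here, so the LETS1 label was not checked by it. The labels name no low-oxygen treatment.

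Glycolysis splits glucose into pyruvate in the cytosol and yields ATP, and lactate dehydrogenase turns pyruvate into lactate, which leaves the cell through monocarboxylate carriers. Pyruvate dehydrogenase kinases switch off the enzyme complex that takes pyruvate into mitochondrial oxidation. Hypoxia-inducible factors (HIFs) are pairs of an oxygen-sensitive alpha subunit and a stable beta subunit, the prolyl hydroxylases mark the alpha subunit for destruction when oxygen is present, and the stabilised factor binds ACGTG or GCGTG motifs in genes for glucose uptake, glycolysis, pH control and vessel growth. ANGPTL4 encodes a secreted inhibitor of lipoprotein lipase and is a known target of TGF-β signalling, of HIFs and of the fatty acid receptors of the PPAR family.

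Promoters are shown for the gene with the largest change here (ANGPTL4), for the metabolic and the hypoxia gene whose fall with TGF-β was larger in LETS1 cells (PDK4 and ADM), and for a glycolytic enzyme gene with several HIF-type letters that hardly moved (LDHA). Each line holds 300 bases, 250 before and 50 after the start of the gene, on the gene's own strand, from RefSeq on build GRCh38.p14. Capitals mark ACGTG or GCGTG, the core of the HIF response element, and CAGAC, a SMAD-type element, on either strand. Capitals that spell none of these hold the same motifs as read from the other strand. The windows are chr19:8363905-8364204 on the plus strand (ANGPTL4), chr7:95596467-95596766 on the minus strand (PDK4), chr11:10304823-10305122 on the plus strand (ADM) and chr11:18394313-18394612 on the plus strand (LDHA).
ANGPTL4: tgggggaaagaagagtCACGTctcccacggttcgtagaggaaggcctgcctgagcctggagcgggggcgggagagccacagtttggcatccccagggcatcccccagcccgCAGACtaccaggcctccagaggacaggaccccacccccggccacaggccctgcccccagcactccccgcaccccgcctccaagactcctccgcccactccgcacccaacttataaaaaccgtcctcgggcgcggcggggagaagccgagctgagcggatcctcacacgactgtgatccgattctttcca
PDK4: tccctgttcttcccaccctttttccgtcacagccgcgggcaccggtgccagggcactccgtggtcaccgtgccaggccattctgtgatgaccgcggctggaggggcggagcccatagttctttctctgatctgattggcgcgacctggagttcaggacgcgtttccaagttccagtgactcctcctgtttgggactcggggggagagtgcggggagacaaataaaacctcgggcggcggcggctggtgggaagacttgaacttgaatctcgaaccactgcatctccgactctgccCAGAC
ADM: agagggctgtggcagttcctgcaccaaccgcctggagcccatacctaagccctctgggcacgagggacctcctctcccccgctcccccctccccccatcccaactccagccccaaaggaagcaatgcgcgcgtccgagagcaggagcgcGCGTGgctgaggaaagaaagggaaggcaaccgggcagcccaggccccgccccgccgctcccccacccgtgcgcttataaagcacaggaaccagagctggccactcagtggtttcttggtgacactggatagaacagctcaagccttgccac
LDHA: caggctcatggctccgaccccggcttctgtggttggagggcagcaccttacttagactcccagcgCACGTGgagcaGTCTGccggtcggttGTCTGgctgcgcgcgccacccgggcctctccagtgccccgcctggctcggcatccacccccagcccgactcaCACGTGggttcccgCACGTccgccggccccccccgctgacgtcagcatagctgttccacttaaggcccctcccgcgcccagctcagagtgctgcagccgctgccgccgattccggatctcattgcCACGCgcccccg
ANGPTL4 held CACGT with its first base at -234 and CAGAC at -139 from the RefSeq start, to which all positions here refer. PDK4 held CAGAC alone, at 46 after the start, and ADM held GCGTG alone, at -101. LDHA held CACGTG at -185 and at -87, which reads as ACGTG on both strands and was counted as 1 match on each, a further CACGT at -73, CACGC at 39, and GTCTG at -174 and -159. These are matches of letters in a fixed window and not measured binding.

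Each library had between 19705135 and 20351043 fragments in genes, so depth hardly differed between groups. In every library 10.1% to 10.9% of all fragments matched several genes and were counted for none. The 6 epithelial marker genes (EPCAM, KRT8, KRT18, KRT7, KRT19 and CDH1) were all expressed. Their summed level was 8732 to 9086 CPM (counts scaled to a common library size, with TMM factors) in LETS1 cells with TGF-β and 9986 to 11048 in Co.vec cells with TGF-β, and 7102 to 7429 in LETS1 cells and 8864 to 9565 in Co.vec cells in buffer. The sum was lower in LETS1 cells in both media, as were KRT8, KRT18 and KRT19, while KRT7 was higher in LETS1 cells (means of 1346 and 1256 CPM in LETS1 and Co.vec cells with TGF-β, and 1116 and 937 CPM in LETS1 and Co.vec cells in buffer). CDH1 had means of 74.4 and 71.3 CPM in LETS1 and Co.vec cells with TGF-β, and 97.6 and 95.9 CPM in LETS1 and Co.vec cells in buffer, and its ranges overlapped. Of 11 markers of immune, endothelial and fibroblast cells, 4 to 7 had no count in a library. The sum of the 11 was 137 to 155 CPM with TGF-β and 22.8 to 28.4 CPM in buffer in LETS1 cells, and 125 to 133 CPM with TGF-β and 17.5 to 18.0 CPM in buffer in Co.vec cells. Most of it was COL1A1, with means of 142 and 126 CPM in LETS1 and Co.vec cells with TGF-β and 19.9 and 13.3 CPM in LETS1 and Co.vec cells in buffer, and ACTA2 followed at 3.14 to 4.33 CPM. The part that these differences have in the results below was not tested, and in RNA from whole cultures fewer cells that express a gene cannot be told apart from less RNA per cell.

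Levels of the 38 genes spanned more than 3 orders of magnitude. Per kilobase of merged exons, the mean over all 12 libraries was highest for GAPDH at 1078 CPM per kb, followed by ENO1 at 506, PKM at 471, LDHA at 374 and TPI1 at 347 CPM per kb. All of these but TPI1, which interconverts the triose phosphates, encode enzymes that act after the triose phosphates, LDHA making lactate from pyruvate. PGK1 and PGAM1 followed, at 146 and 137 CPM per kb, and HIF1A, the main HIF alpha subunit, came next at 99.6 CPM per kb. Over all 12 libraries the ranges of neighbours overlapped in 31 of the 37 neighbour pairs of this order, so most adjacent ranks are not separated. GAPDH stood apart from ENO1, while the ranges of ENO1 and PKM overlapped. Merged exons join all annotated exons of a gene, so this order and the shares per length below depend on the annotation. In plain CPM the order differed. In Co.vec cells in buffer, PKM (mean of 4101 CPM) was above GAPDH (3220 CPM), and GPI (810 CPM) was above HIF1A (459 CPM). The summed level of the 19 glycolytic enzymes was 16297 to 16577 CPM with TGF-β and 15830 to 16410 CPM in buffer in LETS1 cells, against 15795 to 16149 CPM with TGF-β and 15241 to 16454 CPM in buffer in Co.vec cells. The unscaled counts of these enzymes made up 1.56% to 1.66% of the fragments in genes in every library.

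**Figure D1:**
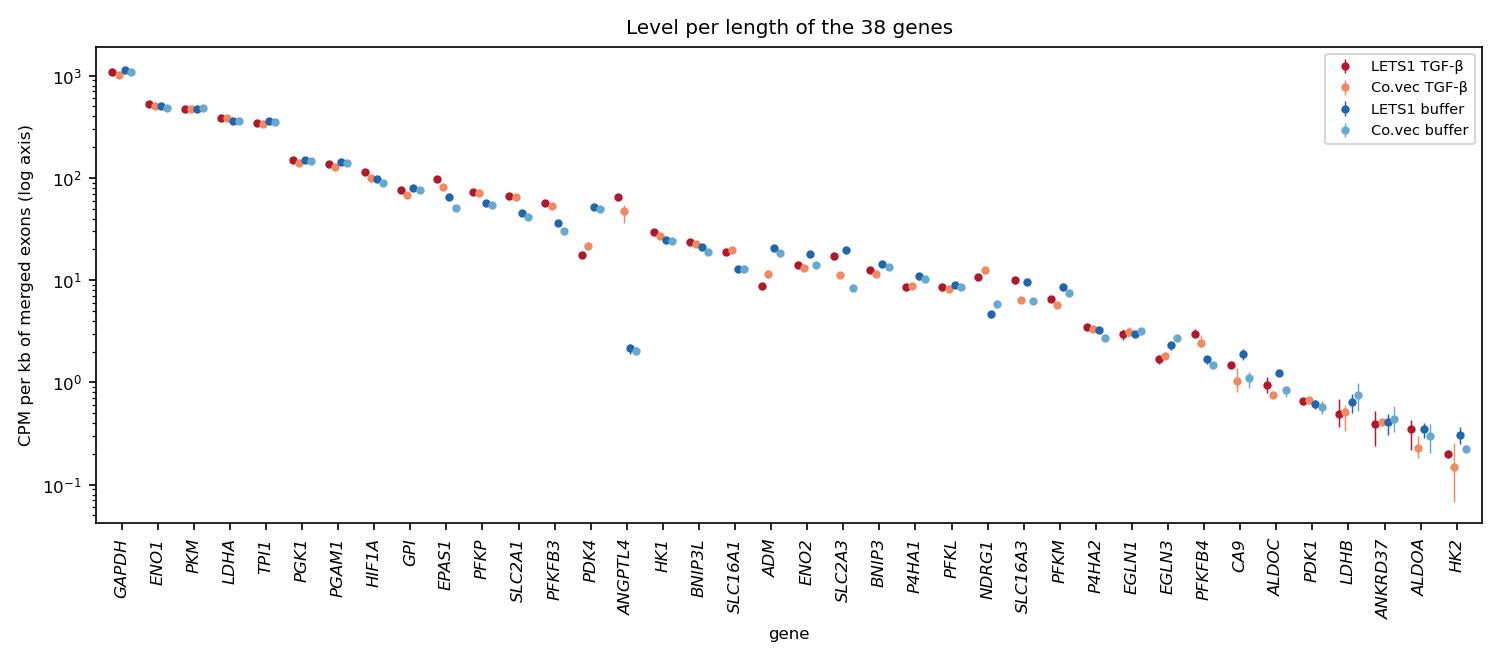
Level of each of the 38 genes in the 4 groups, in CPM per kilobase of merged exons on a log axis, with points at the mean and bars from the lowest to the highest of 3 libraries. GAPDH is highest and HK2 lowest, and ANGPTL4 is the gene whose TGF-β and buffer points lie farthest apart.

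At the bottom of the order, ALDOA, LDHB, ANKRD37 and HK2 had means of 0.308, 0.599, 0.412 and 0.219 CPM per kb. ALDOA is the main aldolase of most tissues and LDHB the heart-type lactate dehydrogenase, and their low counts are uncertain as levels. In GENCODE release 29, 53.5% of the merged exons of ALDOA and 33.4% of those of LDHB overlap exons of another gene on the same or the other strand, and fragments that matched several genes were counted for none. The readthrough genes that overlap them on the same strand, AC093512.2 and AC010197.2, had 21 to 43 and 0 to 3 counts per library. For CA9 and ANKRD37 38.5% and 35.2% of the exons overlap a gene on the opposite strand, and the strand setting of the counting is not given in the sources used here. GAPDH and BNIP3 have 65 and 44 pseudogenes with their name in the annotation, with which reads may be shared. How much these features moved the levels was not tested.

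Of the 38 genes, 20 (52.6%) passed the test for TGF-β in LETS1 cells and 22 (57.9%) in Co.vec cells. The test was edgeR's quasi-likelihood test with Benjamini-Hochberg adjustment over all genes tested, as for all adjusted p below, and a gene is called where its adjusted p is under 0.05. In LETS1 cells 11 were higher and 9 lower, where 38.7% of all genes tested were called (19.7% higher and 19.1% lower), and the median log2 fold change was -0.02 over the 38 and -0.02 over all genes. In Co.vec cells 14 were higher and 8 lower, where 39.7% of all genes were called (21.1% higher and 18.6% lower), with medians of -0.04 over the 38 and -0.02 over all. The list was chosen with these results known, so its larger shares are a description only, and its medians lay within 0.03 of those of all genes. Members moved both ways, and the median absolute log2 fold change was larger over the 38 than over all genes. It was 0.238 against 0.193 in LETS1 cells and 0.226 against 0.195 in Co.vec cells, again a description only. The 11 genes called higher in both vectors were HK1, PFKP, PFKFB3, PFKFB4, SLC2A1, SLC16A1, ANGPTL4, NDRG1, BNIP3L, HIF1A and EPAS1. The 6 called lower in both were PFKM, PDK4, ADM, BNIP3, P4HA1 and EGLN3. The 12 genes ALDOA, ANKRD37, EGLN1, ENO1, GAPDH, HK2, LDHB, PDK1, PFKL, PGK1, PKM and TPI1 were called in none of the 5 contrasts. The shares of all genes called in both vectors, or in none of the 5 contrasts, were not counted. These joint counts therefore only describe the list.

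**Figure D2:**
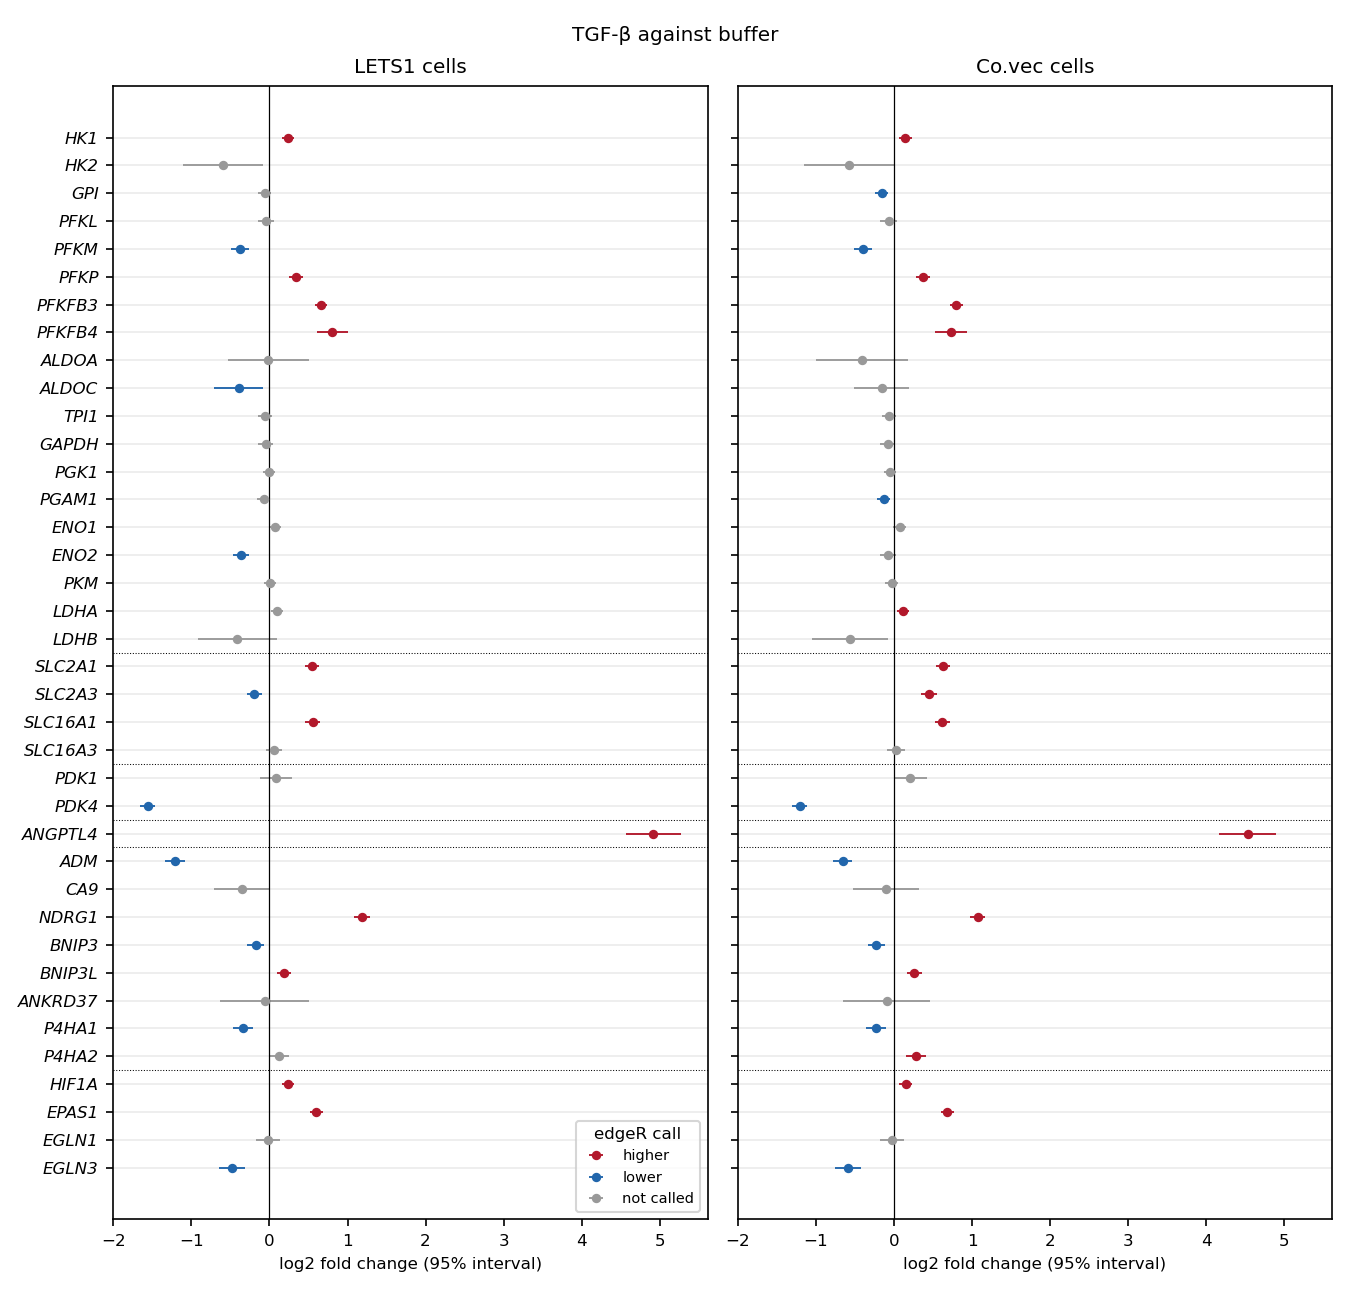
Log2 fold change of TGF-β against buffer with its 95% interval for the 38 genes in LETS1 cells (left) and Co.vec cells (right), ordered by role from glycolytic enzymes at the top to HIF subunits and prolyl hydroxylases at the bottom, red where called higher and blue where called lower. ANGPTL4 lies near 5 in both panels, PDK4 and ADM are the lowest, and most abundant enzymes lie near 0.

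Fewer passed the test for LETS1 against Co.vec, 11 of the 38 (28.9%) in each medium. With TGF-β 8 of the 38 were higher and 3 lower in LETS1 cells, where 14.1% of all genes were called (7.58% higher and 6.5% lower), with medians of 0.07 over the 38 and -0.0004 over all genes. In buffer 10 were higher and 1 lower, where 15.1% of all genes were called (8.57% higher and 6.56% lower), with medians of 0.09 over the 38 and 0.01 over all. The larger shares are again a description only. For LETS1 against Co.vec, the median absolute log2 fold change was no larger over the 38 than over all genes. It was 0.099 against 0.112 with TGF-β and 0.107 against 0.113 in buffer. Without LETS1 TGF-β replicate 1 only 5 were called higher with TGF-β. In buffer 2 were called lower without LETS1 TGF-β replicate 1, LETS1 buffer replicate 3 or Co.vec TGF-β replicate 3. PFKM, SLC2A3, SLC16A3 and EPAS1 were called higher in LETS1 cells in both media, and NDRG1 was called lower in both. The share of all genes called in both media was not counted. The comparisons share groups (the TGF-β contrasts and the LETS1 contrasts use the same libraries), so their calls are not independent of each other.

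**Figure D3:**
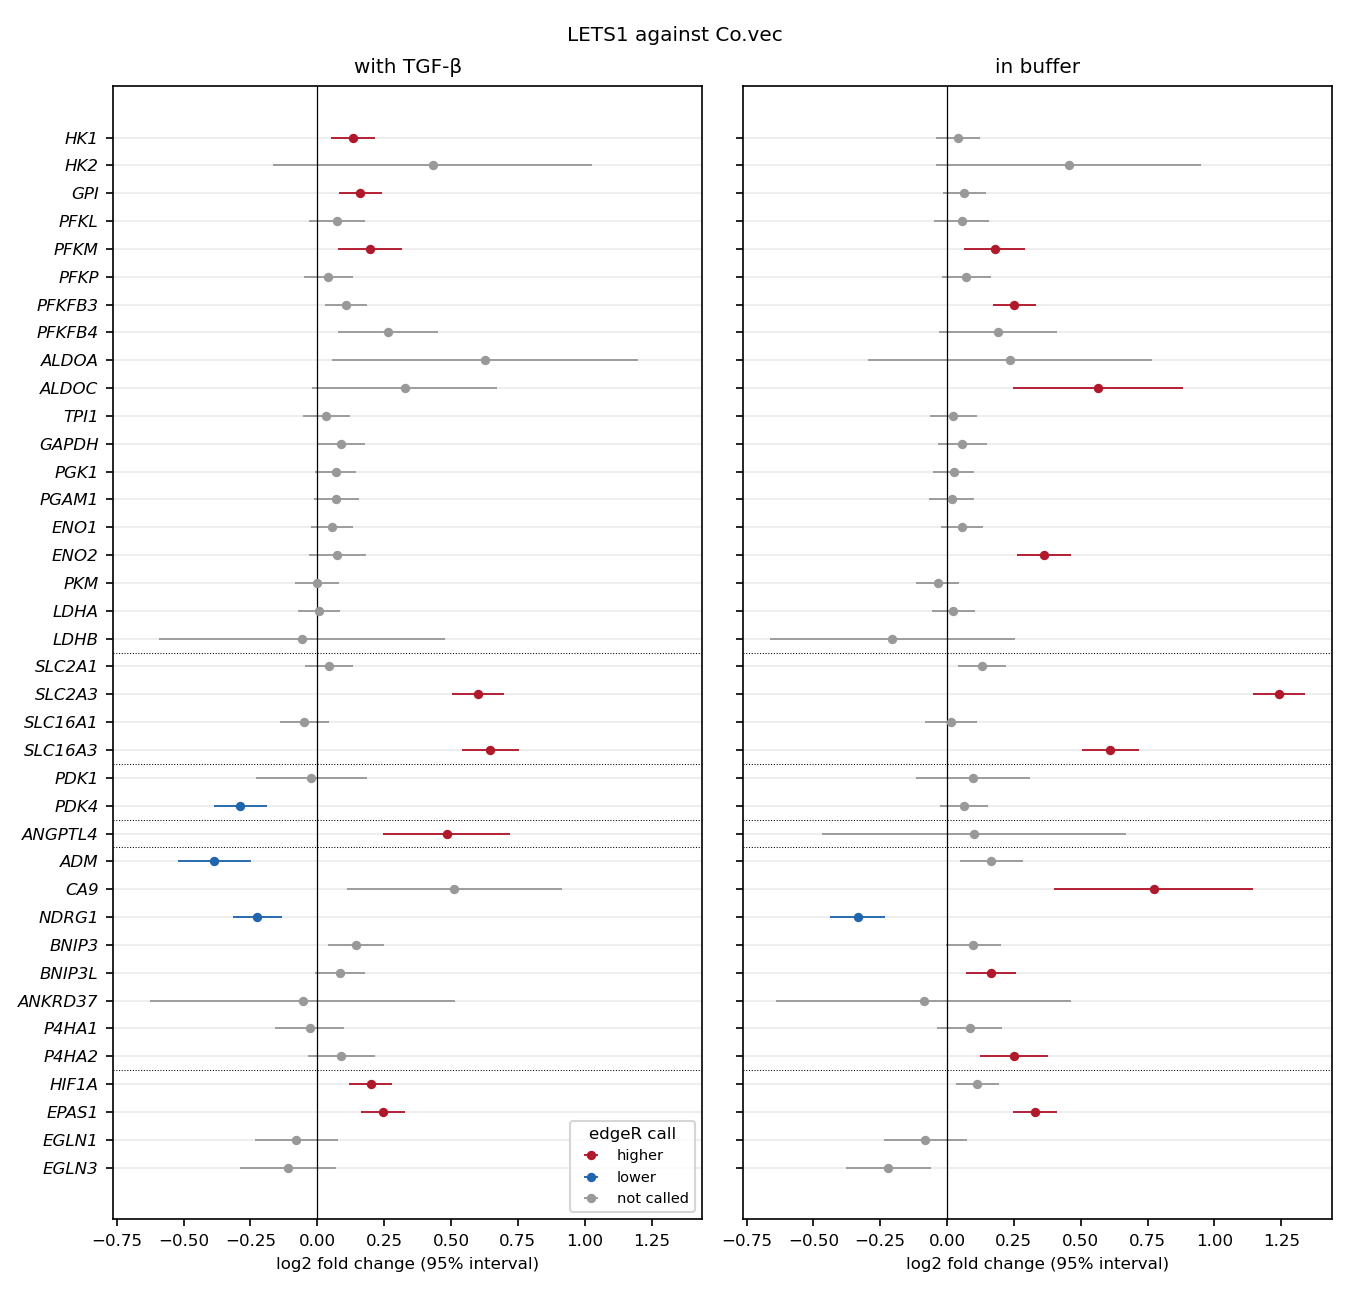
Log2 fold change of LETS1 against Co.vec with its 95% interval for the 38 genes with TGF-β (left) and in buffer (right), in the same order of roles, red where called higher and blue where called lower. SLC2A3 and SLC16A3 lie to the right in both panels, and ADM and PDK4 are blue with TGF-β and grey in buffer.

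ANGPTL4 (ENSG00000167772, GRCh38 chr19:8363289-8374373, plus strand) had the largest change of the 38 genes in both vectors. With TGF-β its level was 170.2, 166 and 153 CPM in the 3 LETS1 libraries and 135, 124 and 90.6 CPM in the 3 Co.vec libraries. In buffer it was 4.69, 5.89 and 5.62 CPM in LETS1 cells and 4.84, 5.5 and 4.76 CPM in Co.vec cells. Every library with TGF-β was above every library with buffer, every LETS1 library with TGF-β was above every Co.vec library with TGF-β, and in buffer the 2 vectors overlapped. ANGPTL4 rose 30.2-fold with TGF-β in LETS1 cells (log2 fold change 4.92, SE 0.18, adjusted p = 5.84e-09) and 23.1-fold in Co.vec cells (log2 fold change 4.53, SE 0.19, adjusted p = 1.53e-08). Ordered by log2 fold change, it was the gene with rank 4 of 16192 in LETS1 cells and rank 15 in Co.vec cells.

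With TGF-β, ANGPTL4 was higher in LETS1 cells than in Co.vec cells (log2 fold change 0.48, SE 0.12, adjusted p = 0.0266). In buffer the log2 fold change of LETS1 against Co.vec was 0.10 (95% interval -0.47 to 0.67, adjusted p = 0.881). The difference between its TGF-β responses, LETS1 minus Co.vec, was 0.38 with a 95% interval of -0.23 to 1.00 and an adjusted p of 0.881, so a larger response in LETS1 cells was not shown. The spread of ANGPTL4 in Co.vec cells with TGF-β was wide, with 117 ± 23.3 CPM (SD, n = 3), against 163 ± 8.84 CPM in LETS1 cells with TGF-β. The call with TGF-β was lost in a fit of the 6 libraries compared (adjusted p = 0.151). It was also lost without LETS1 TGF-β replicate 1 (0.101) or 2 (0.0726), without Co.vec TGF-β replicate 2 (0.0561), and without Co.vec buffer replicate 1 (0.0507) or 3 (0.0503).

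The other members of its family stayed too low to be tested. ANGPTL2, a secreted relative, had summed counts of 30 over the 3 LETS1 and 24 over the 3 Co.vec libraries with TGF-β, and of 2 and 1 in the LETS1 and Co.vec libraries with buffer. LPL, which encodes the lipase that ANGPTL4 inhibits, had no count in 11 of the 12 libraries and 1 count in 1 LETS1 buffer library.

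**Figure D4:**
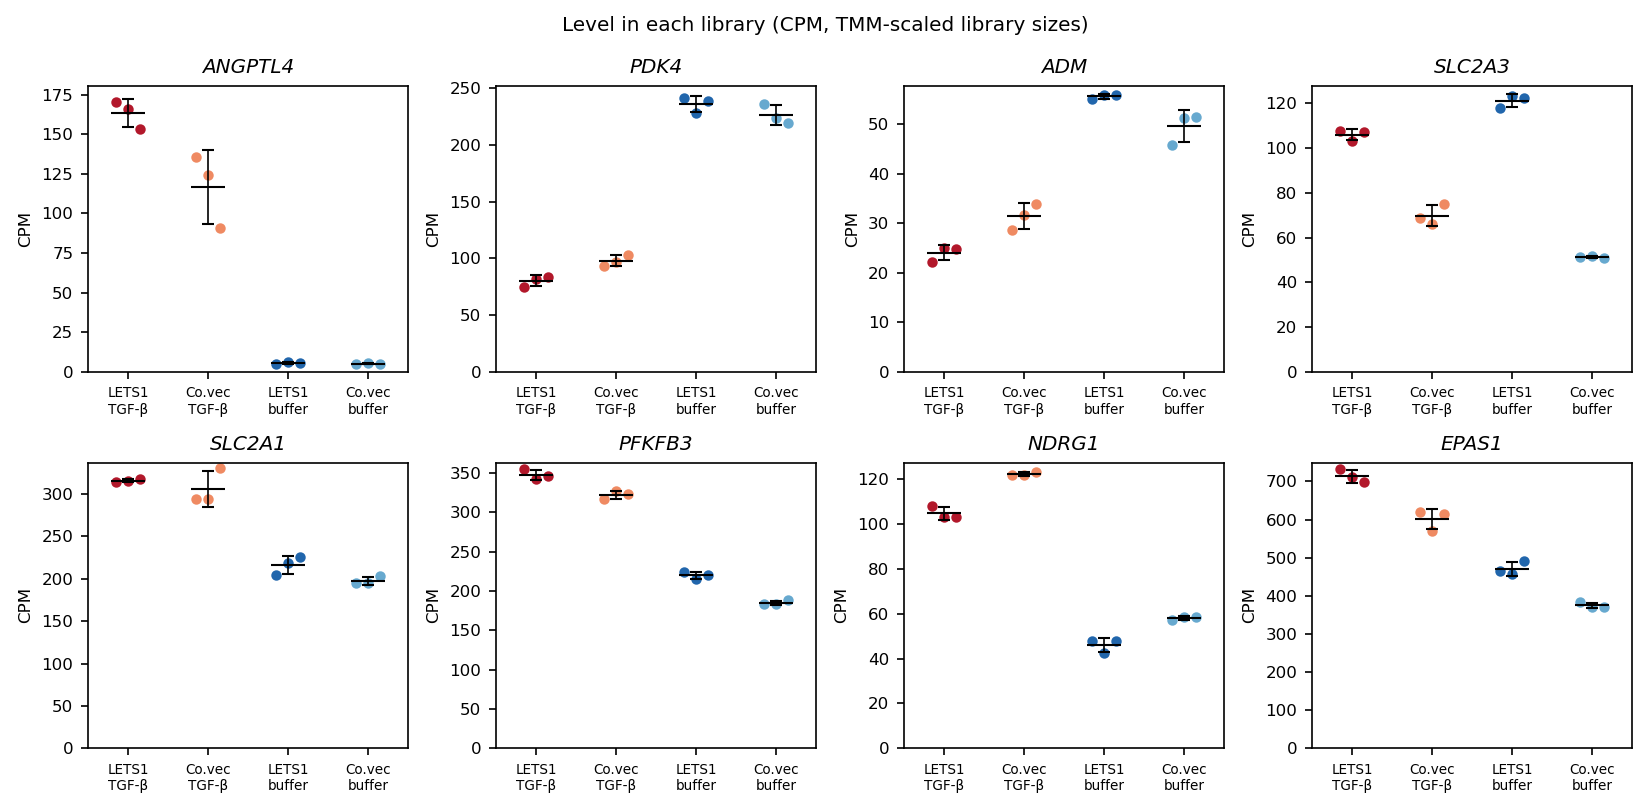
Level in CPM (vertical axes from 0) of 8 genes in each of the 12 libraries, grouped on the horizontal axis as LETS1 with TGF-β, Co.vec with TGF-β, LETS1 with buffer and Co.vec with buffer, with the mean and SD of 3 libraries as lines. ANGPTL4 is near 5 CPM in all buffer libraries, PDK4 and ADM lie lower with TGF-β, and SLC2A3 is higher in LETS1 cells in both media.

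PDK4 (ENSG00000004799, GRCh38 chr7:95583499-95596491, minus strand) encodes a kinase that switches off pyruvate dehydrogenase and is induced by fasting in many tissues. Its level with TGF-β was 74.6, 82.0 and 83.9 CPM in LETS1 cells and 93.7, 96.9 and 103 CPM in Co.vec cells. In buffer it was 242, 228 and 239 CPM in LETS1 cells and 236, 223 and 219 CPM in Co.vec cells. Libraries with TGF-β lay far below those with buffer, and with TGF-β every LETS1 library was below every Co.vec library. PDK4 fell to 0.339-fold of buffer with TGF-β in LETS1 cells (log2 fold change -1.56, SE 0.05, adjusted p = 4.59e-26) and to 0.432-fold in Co.vec cells (log2 fold change -1.21, SE 0.05, adjusted p = 9.82e-23). The fall was larger in LETS1 cells, with a difference of -0.35 on the log2 scale (SE 0.07, adjusted p = 0.00287). LETS1 against Co.vec gave a log2 fold change of -0.29 (adjusted p = 4.97e-05) with TGF-β, and 0.06 in buffer (95% interval -0.03 to 0.15, adjusted p = 0.425). PDK1, the kinase that HIF1 induces in low oxygen, was low, with 8.90 to 10.4 CPM in LETS1 and 9.08 to 10.7 CPM in Co.vec libraries with TGF-β and 8.25 to 10.1 CPM in LETS1 and 7.26 to 9.78 CPM in Co.vec libraries in buffer. PDK1 was called in none of the 5 contrasts, and its groups overlapped in each of the 4 group comparisons. PDK4 made up 96.4% ± 0.397 of the summed level per length of the pair in LETS1 cells with TGF-β and 98.8% ± 0.124 in LETS1 cells in buffer (SD, n = 3 each).

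The carriers of glucose and lactate were, in sum, higher with TGF-β and higher in LETS1 cells. The sum of the 4 was 610.0 to 614 CPM with TGF-β and 474 to 504 CPM in buffer in LETS1 cells, and 523 to 565 CPM with TGF-β and 368 to 378 CPM in buffer in Co.vec cells. None of these 4 ranges overlapped. The genes that made it up differed between TGF-β and LETS1. SLC2A1, the glucose carrier GLUT1, and SLC16A1, the lactate carrier MCT1, rose with TGF-β in both vectors, and SLC2A3, the high-affinity glucose carrier GLUT3, and SLC16A3, the lactate exporter MCT4, were higher in LETS1 cells in both media.

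SLC2A3 (ENSG00000059804, GRCh38 chr12:7919230-7936275, minus strand) had 108, 103 and 107 CPM in LETS1 and 68.7, 65.9 and 74.8 CPM in Co.vec cells with TGF-β. In buffer it had 118, 123 and 122 CPM in LETS1 cells and 51.2, 51.8 and 50.8 CPM in Co.vec cells. All LETS1 libraries were above all Co.vec libraries, and TGF-β libraries lay below buffer libraries in LETS1 cells but above them in Co.vec cells. It was the 1 gene of the 38 called in opposite directions by TGF-β: it fell in LETS1 cells (log2 fold change -0.19, SE 0.05, adjusted p = 9.62e-04) and rose in Co.vec cells (log2 fold change 0.44, SE 0.05, adjusted p = 3.35e-09). The difference between the responses was -0.64 (SE 0.07, adjusted p = 9.73e-08). SLC2A3 was 1.52-fold higher in LETS1 than in Co.vec cells with TGF-β (log2 fold change 0.60, adjusted p = 2.10e-12) and 2.36-fold higher in buffer (log2 fold change 1.24, adjusted p = 7.73e-22). SLC2A3 made up 20.5% ± 0.385 of the summed level per length of the 2 glucose carriers in LETS1 and 14.9% ± 0.288 in Co.vec cells with TGF-β. In buffer the share was 30.1% ± 0.673 in LETS1 and 16.6% ± 0.425 in Co.vec cells (SD, n = 3 each).

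SLC2A1 (GRCh38 chr1:42925375-42959176, minus strand) had 314, 315 and 317 CPM in LETS1 and 294, 294 and 330.3 CPM in Co.vec cells with TGF-β, and 205, 219 and 226 CPM in LETS1 and 195, 195 and 203 CPM in Co.vec cells in buffer. All TGF-β libraries were above all buffer libraries, and SLC2A1 rose in LETS1 cells (log2 fold change 0.54, SE 0.05, adjusted p = 9.00e-13) and in Co.vec cells (log2 fold change 0.63, SE 0.05, adjusted p = 1.50e-14). With TGF-β the vectors overlapped. In buffer LETS1 libraries lay above Co.vec libraries, with a log2 fold change of 0.13 (95% interval 0.04 to 0.22) and an adjusted p of 0.0518, just outside the threshold. That contrast passed it without LETS1 buffer replicate 1 (0.0253), LETS1 TGF-β replicate 3 (0.0428), Co.vec TGF-β replicate 2 (0.0481) or 3 (0.0288), or Co.vec buffer replicate 3 (0.0476), and in a fit of the 6 libraries compared (0.0406).

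SLC16A1 had 97.3, 101 and 103 CPM in LETS1 and 104, 109 and 99.1 CPM in Co.vec cells with TGF-β, and 67.1 to 70.8 CPM in LETS1 and 66.8 to 68.6 CPM in Co.vec libraries in buffer. It rose with TGF-β by 0.55 (adjusted p = 2.12e-12) in LETS1 cells and 0.62 (adjusted p = 9.72e-14) in Co.vec cells on the log2 scale, and the 2 vectors overlapped in both media. SLC16A3 had 93.7, 94.1 and 82.7 CPM in LETS1 and 57.9, 54.4 and 60.4 CPM in Co.vec cells with TGF-β, and 83.7, 90.1 and 85.3 CPM in LETS1 and 54.4, 57.8 and 57.5 CPM in Co.vec cells in buffer. Every LETS1 library was above every Co.vec library in both media (log2 fold change 0.65, SE 0.05, adjusted p = 5.16e-12 with TGF-β and log2 fold change 0.61, SE 0.05, adjusted p = 2.05e-11 in buffer). TGF-β against buffer gave log2 fold changes for SLC16A3 of 0.06 in LETS1 cells (95% interval -0.04 to 0.17) and 0.02 in Co.vec cells (95% interval -0.09 to 0.14), and neither passed the test.

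Of the 19 glycolytic enzymes, 4 rose and 3 fell with TGF-β in LETS1 cells, and 5 rose and 3 fell in Co.vec cells. These are 36.8% of them in LETS1 and 42.1% in Co.vec cells, near the 38.7% and 39.7% of all genes called. The log2 fold change was within 0.2 of 0 for 10 of them in LETS1 cells and for 12 in Co.vec cells. PFKFB3 and PFKFB4 make a sugar bisphosphate that activates phosphofructokinase, PFKP is the platelet-type phosphofructokinase and HK1 a hexokinase, and these 4 rose in both vectors. PFKFB3 (GRCh38 chr10:6144934-6254644, plus strand) had 355, 342 and 347 CPM in LETS1 and 317, 328 and 323 CPM in Co.vec cells with TGF-β, and 224, 216 and 221 CPM in LETS1 and 183, 184 and 188 CPM in Co.vec cells in buffer. The 4 groups did not overlap, and PFKFB3 rose with TGF-β by 0.66 (adjusted p = 7.37e-17) in LETS1 cells and 0.80 (adjusted p = 2.25e-19) in Co.vec cells on the log2 scale. In buffer it was higher in LETS1 cells (log2 fold change 0.25, SE 0.04, adjusted p = 1.24e-05). With TGF-β the log2 fold change of LETS1 against Co.vec was 0.11 (95% interval 0.03 to 0.19) with an adjusted p of 0.0647, and 0.0226 by DESeq2. PFKFB4 had 20.3, 16.7 and 16.9 CPM in LETS1 and 17.9, 13.6 and 13.5 CPM in Co.vec cells with TGF-β, above the 9.33 to 11.1 CPM of LETS1 and the 8.45 to 9.42 CPM of Co.vec libraries in buffer. It rose by 0.81 (adjusted p = 2.34e-08) in LETS1 cells and 0.73 (adjusted p = 4.83e-07) in Co.vec cells.

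The 3 phosphofructokinase subunits, which share the committed step of glycolysis, did not move together. PFKP had 364, 352 and 336 CPM in LETS1 and 374, 321 and 329 CPM in Co.vec cells with TGF-β, and 275, 274 and 281 CPM in LETS1 and 257, 264 and 269 CPM in Co.vec cells in buffer. PFKM, the muscle type, had 44.5, 48.6 and 50.5 CPM in LETS1 and 40.8, 41.6 and 42.9 CPM in Co.vec cells with TGF-β, and 60.5, 57.7 and 67.9 CPM in LETS1 and 55.0, 53.5 and 56.1 CPM in Co.vec cells in buffer. PFKP rose with TGF-β, with log2 fold changes of 0.34 (adjusted p = 1.24e-07) in LETS1 and 0.37 (adjusted p = 1.99e-08) in Co.vec cells. PFKM fell, with log2 fold changes of -0.37 (adjusted p = 1.56e-06) in LETS1 and -0.39 (adjusted p = 1.05e-06) in Co.vec cells. PFKL, the liver type, was called in no contrast. Of the summed level per length of the 3, PFKP made up 82.7% ± 0.668 with TGF-β and 76.7% ± 0.145 in buffer in LETS1 cells, and 83.5% ± 1.23 with TGF-β and 77.2% ± 0.0214 in buffer in Co.vec cells (SD, n = 3 each). PFKM was also higher in LETS1 than in Co.vec cells, by 0.20 (adjusted p = 0.0239) with TGF-β and 0.18 (adjusted p = 0.0297) in buffer on the log2 scale. Both of those calls depended on the libraries and settings used. With TGF-β the call was lost without LETS1 TGF-β replicate 2 (0.0920) or 3 (0.125) or Co.vec TGF-β replicate 1 (0.105) or 2 (0.0720). In buffer it was lost without LETS1 buffer replicate 3 (0.306) or Co.vec buffer replicate 1 (0.0545) or 2 (0.135), by DESeq2 (0.0600) and with no filter on low counts (0.0538).

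HK1 had 184, 188 and 182 CPM in LETS1 and 168, 173 and 165 CPM in Co.vec cells with TGF-β, and 159, 155 and 156 CPM in LETS1 and 153, 149 and 155 CPM in Co.vec cells in buffer. It rose with TGF-β by 0.24 (adjusted p = 1.28e-05) in LETS1 cells and 0.15 (adjusted p = 0.00497) in Co.vec cells, and was higher in LETS1 cells with TGF-β (log2 fold change 0.13, adjusted p = 0.0270). That last call was lost without LETS1 TGF-β replicate 1 (0.0677) or 2 (0.128) or Co.vec TGF-β replicate 1 (0.0912) or 3 (0.0872), in a fit of the 6 libraries compared (0.0550) and with no filter on low counts (0.0677). HK2, the hexokinase that many tumours induce, had 1.10 to 1.32 CPM in LETS1 and 0.412 to 1.54 CPM in Co.vec libraries with TGF-β and 1.51 to 2.21 CPM in LETS1 and 1.25 to 1.48 CPM in Co.vec libraries in buffer, and was called in no contrast. GPI, which turns glucose phosphate into fructose phosphate, was lower with TGF-β in Co.vec cells, with 743, 713 and 721 CPM with TGF-β and 785, 812 and 834 CPM in buffer (log2 fold change -0.16, adjusted p = 0.00181). With TGF-β it was higher in LETS1 cells, at 841, 804 and 789 CPM (log2 fold change 0.16, adjusted p = 0.00503), a call lost without LETS1 TGF-β replicate 1 (0.0573).

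The abundant enzymes of the lower steps moved by little. GAPDH, the dehydrogenase of the middle of the pathway, had 3359.8, 3175 and 3171 CPM in LETS1 and 3114, 2888 and 3128 CPM in Co.vec cells with TGF-β, and 3154, 3487 and 3411 CPM in LETS1 and 3044, 3202 and 3415 CPM in Co.vec cells in buffer. TGF-β and buffer libraries overlapped, with log2 fold changes of -0.05 (95% interval -0.14 to 0.04) in LETS1 and -0.08 (95% interval -0.17 to 0.01) in Co.vec cells. Without Co.vec buffer replicate 1, GAPDH passed the test as lower with TGF-β in Co.vec cells (adjusted p = 0.0487). TPI1, the triose phosphate isomerase, had 95% intervals of -0.14 to 0.03 in LETS1 and -0.16 to 0.02 in Co.vec cells for the same contrast. ENO1, PKM and PGK1 were likewise called in no contrast.

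LDHA, which makes lactate, had 2374, 2380.3 and 2495 CPM in LETS1 and 2462, 2373 and 2381 CPM in Co.vec cells with TGF-β, and 2279.5, 2190.1 and 2299.5 CPM in LETS1 and 2184, 2187 and 2288 CPM in Co.vec cells in buffer. TGF-β libraries lay above buffer libraries in both vectors, by 0.10 in LETS1 cells (95% interval 0.02 to 0.18, adjusted p = 0.0513) and 0.12 (adjusted p = 0.0213) in Co.vec cells, where the change passed the test. The Co.vec call was lost without Co.vec TGF-β replicate 1 (0.0683) or Co.vec buffer replicate 1 (0.0675) or 2 (0.0703). In LETS1 cells the adjusted p of LDHA ran from 0.0123 to 0.174 over the alternatives, and it passed the threshold in 10 of 17, among them without LETS1 TGF-β replicate 1, without each Co.vec TGF-β replicate, and without Co.vec buffer replicate 1 or 3. PGAM1, the phosphoglycerate mutase, fell in Co.vec cells (log2 fold change -0.13, adjusted p = 0.0147), and that call was lost without Co.vec TGF-β replicate 1 (0.0541) or 2 (0.0679) or Co.vec buffer replicate 2 (0.0510) or 3 (0.122), and with no filter on low counts (0.0570).

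The minor isoforms ENO2 and ALDOC, known for their expression in neurons, were higher in LETS1 cells in buffer. ENO2 had 57.9, 60.3 and 60.9 CPM in LETS1 and 55.6, 58.9 and 55.6 CPM in Co.vec cells with TGF-β, and 74.2, 79.1 and 77.1 CPM in LETS1 and 56.0, 63.0 and 60.2 CPM in Co.vec cells in buffer. The LETS1 buffer libraries stood above the other 9. ENO2 was higher in LETS1 than in Co.vec cells in buffer (log2 fold change 0.36, SE 0.05, adjusted p = 1.09e-06) and fell with TGF-β in LETS1 cells (log2 fold change -0.36, SE 0.05, adjusted p = 3.21e-07). The difference between its TGF-β responses was -0.29 (95% interval -0.43 to -0.14), with an adjusted p of 0.0606, and 0.0431 without Co.vec buffer replicate 2. ALDOC, the brain-type aldolase, had 3.56, 3.68 and 3.71 CPM in LETS1 and 2.13, 2.58 and 2.71 CPM in Co.vec cells in buffer (log2 fold change 0.56, adjusted p = 0.0128). That call was lost without Co.vec buffer replicate 1 (0.0810) and by DESeq2 (0.0569). ALDOC also fell with TGF-β in LETS1 cells (log2 fold change -0.40, adjusted p = 0.0453), which did not hold in 13 of 17 alternatives, 9 of which left out 1 library each, with adjusted p from 0.0200 to 0.232 over all of them. ALDOC kept that call without LETS1 TGF-β replicate 1 and without Co.vec buffer replicate 1 or 3, and lost it without each of the other 9 libraries.

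The genes of the 2 HIF alpha subunits rose with TGF-β. EPAS1, which encodes HIF2 alpha (GRCh38 chr2:46293667-46386703, plus strand), had 732, 711 and 698 CPM in LETS1 and 619.6, 571 and 614 CPM in Co.vec cells with TGF-β, and 465, 457 and 491 CPM in LETS1 and 383, 370.2 and 371 CPM in Co.vec cells in buffer. The 4 groups were separate, in the order LETS1 with TGF-β, Co.vec with TGF-β, LETS1 in buffer and Co.vec in buffer, from high to low. EPAS1 rose with TGF-β in LETS1 (log2 fold change 0.60, SE 0.04, adjusted p = 4.90e-15) and Co.vec cells (log2 fold change 0.68, SE 0.04, adjusted p = 1.19e-16), and was higher in LETS1 cells with TGF-β (log2 fold change 0.25, adjusted p = 3.03e-05) and in buffer (log2 fold change 0.33, adjusted p = 1.31e-07). HIF1A had 597, 581 and 580.0 CPM in LETS1 and 530.1, 496 and 504 CPM in Co.vec cells with TGF-β, and 484, 502 and 505 CPM in LETS1 and 471, 447 and 460.0 CPM in Co.vec cells in buffer. It rose with TGF-β by 0.24 (adjusted p = 8.09e-06) in LETS1 and 0.15 (adjusted p = 0.00294) in Co.vec cells, and was higher in LETS1 cells with TGF-β (log2 fold change 0.20, adjusted p = 3.98e-04). In buffer LETS1 libraries lay above Co.vec libraries, by 0.11 on the log2 scale (95% interval 0.03 to 0.19), with an adjusted p of 0.0556, 0.0378 by DESeq2, 0.0490 in a fit of the 6 libraries compared, 0.0442 without Co.vec buffer replicate 1 and 0.0429 without LETS1 TGF-β replicate 3. HIF proteins are set mainly by their stability, which RNA levels do not measure. Of the summed level per length of the 2 subunits, EPAS1 made up 46.2% ± 0.252 in LETS1 and 45.4% ± 0.734 in Co.vec cells with TGF-β, and 40.1% ± 0.840 in LETS1 and 36.5% ± 0.310 in Co.vec cells in buffer (SD, n = 3 each).

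The hydroxylase genes did not follow the subunits. EGLN3, the prolyl hydroxylase PHD3 and itself a HIF target, had 11, 12.9 and 13.2 CPM in LETS1 and 13.7, 12.7 and 13.6 CPM in Co.vec cells with TGF-β, and 15.3, 18.0 and 18.5 CPM in LETS1 and 19.7, 19.0 and 21.6 CPM in Co.vec cells in buffer. It fell with TGF-β, with log2 fold changes of -0.48 (adjusted p = 2.17e-05) in LETS1 and -0.59 (adjusted p = 3.23e-07) in Co.vec cells, and TGF-β and buffer libraries did not overlap in either vector. EGLN1, the main oxygen sensor PHD2, had 18.8 to 23.4 CPM in LETS1 and 20.3 to 25.1 CPM in Co.vec libraries with TGF-β and 21.6 to 21.9 CPM in LETS1 and 22.2 to 24.6 CPM in Co.vec libraries in buffer, and was called in no contrast.

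The hypoxia response genes moved in both directions with TGF-β. ADM (GRCh38 chr11:10304680-10307397, plus strand), which encodes the vessel-widening peptide adrenomedullin, had 22.2, 25.1 and 24.9 CPM in LETS1 and 28.6, 31.7 and 33.9 CPM in Co.vec cells with TGF-β. In buffer it had 55.1, 55.8 and 55.9 CPM in LETS1 and 45.9, 51.4 and 51.5 CPM in Co.vec cells. LETS1 libraries lay below Co.vec libraries with TGF-β and above them in buffer. ADM fell with TGF-β in LETS1 (log2 fold change -1.21, SE 0.07, adjusted p = 1.18e-18) and in Co.vec cells (log2 fold change -0.66, SE 0.06, adjusted p = 3.37e-11), and the fall was larger in LETS1 cells (difference -0.55, SE 0.09, adjusted p = 3.44e-04). With TGF-β ADM was lower in LETS1 than in Co.vec cells (log2 fold change -0.39, adjusted p = 6.98e-05). In buffer the log2 fold change was 0.17 (95% interval 0.05 to 0.28, adjusted p = 0.0542). This buffer contrast passed the threshold with the replicate number as a block (0.0413) and without LETS1 TGF-β replicate 1 (0.0482) or 3 (0.0442), Co.vec TGF-β replicate 3 (0.0419) or Co.vec buffer replicate 3 (0.0474), and in a fit of the 6 libraries compared (0.0426).

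NDRG1, a stress-induced differentiation gene, moved the other way. It had 108, 103 and 103 CPM in LETS1 and 122, 122 and 123 CPM in Co.vec cells with TGF-β, and 48.0, 42.3 and 47.8 CPM in LETS1 and 57.0, 58.5 and 58.5 CPM in Co.vec cells in buffer. It rose 2.27-fold with TGF-β in LETS1 cells (log2 fold change 1.18, SE 0.05, adjusted p = 1.15e-21) and 2.11-fold in Co.vec cells (log2 fold change 1.07, SE 0.05, adjusted p = 9.59e-21). It was also the 1 gene of the 38 that was called lower in LETS1 cells in both media, with log2 fold changes of -0.22 (adjusted p = 6.74e-04) with TGF-β and -0.33 (adjusted p = 7.13e-06) in buffer, and the groups did not overlap.

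BNIP3 and BNIP3L, paired mitophagy receptors, were called in opposite directions by TGF-β. BNIP3 had 65.7, 69.8 and 67.1 CPM in LETS1 and 60.3, 65.1 and 58.0 CPM in Co.vec cells with TGF-β, and 75.1, 78.8 and 75.3 CPM in LETS1 and 68.3, 69.6 and 76.4 CPM in Co.vec cells in buffer. It fell in LETS1 (log2 fold change -0.18, adjusted p = 0.00667) and Co.vec cells (log2 fold change -0.22, adjusted p = 8.21e-04), the call in LETS1 cells being lost without LETS1 buffer replicate 2 (0.0549). BNIP3L had 104, 103 and 100.4 CPM in LETS1 and 97.2, 97.0 and 95.4 CPM in Co.vec cells with TGF-β, and 94.8, 85.6 and 90.2 CPM in LETS1 and 83.8, 77.1 and 80.5 CPM in Co.vec cells in buffer. It rose with TGF-β by 0.18 (adjusted p = 0.00191) in LETS1 and 0.26 (adjusted p = 2.54e-05) in Co.vec cells. It was higher in LETS1 cells in buffer (log2 fold change 0.16, adjusted p = 0.0156), a call lost without LETS1 buffer replicate 1 (0.136) or Co.vec buffer replicate 2 (0.137) and with no filter on low counts (0.0535).

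P4HA1 and P4HA2 encode catalytic subunits of the collagen prolyl hydroxylase. P4HA1 had 26.2, 28.1 and 25.4 CPM in LETS1 and 27.1, 26.8 and 27.3 CPM in Co.vec cells with TGF-β, and 31.1, 34.2 and 35.6 CPM in LETS1 and 31.3, 31.6 and 32.2 CPM in Co.vec cells in buffer, and it fell in both vectors, with log2 fold changes of -0.34 (adjusted p = 3.21e-05) in LETS1 and -0.23 (adjusted p = 0.00407) in Co.vec cells. P4HA2 had 29, 29.6 and 30.9 CPM in LETS1 and 27.6, 28.0 and 28.5 CPM in Co.vec cells with TGF-β, and 26.2, 26.7 and 29.4 CPM in LETS1 and 23.8, 23.2 and 22.1 CPM in Co.vec cells in buffer. It rose with TGF-β in Co.vec cells (log2 fold change 0.28, adjusted p = 6.34e-04), while in LETS1 cells, where the libraries overlapped, the log2 fold change was 0.12 (95% interval -0.0043 to 0.24). In buffer P4HA2 was higher in LETS1 cells (log2 fold change 0.25, adjusted p = 0.00588), which was lost without LETS1 buffer replicate 3 (0.0731). CA9, the tumour carbonic anhydrase that HIF1 controls, was low, at 2.29 to 2.56 CPM in LETS1 and 1.34 to 2.31 CPM in Co.vec libraries with TGF-β and 2.73 to 3.56 CPM in LETS1 and 1.48 to 2.13 CPM in Co.vec libraries in buffer. It was higher in LETS1 cells in buffer (log2 fold change 0.77, adjusted p = 0.00319) and was not called with TGF-β in either vector. ANKRD37, a small ankyrin-repeat gene induced by HIF1, had 0.610 to 1.35 CPM in LETS1 and 1.03 to 1.08 CPM in Co.vec libraries with TGF-β and was called in no contrast.

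The difference between the TGF-β responses of LETS1 and Co.vec cells was called for 3 of the 38 genes (7.89%), SLC2A3, ADM and PDK4, where 0.679% of all genes were called (0.0803% higher and 0.599% lower). Over all genes, the 13 called higher became 8 without LETS1 buffer replicate 3, 21 without Co.vec TGF-β replicate 3 and 28 with no filter on low counts. All 3 members had a lower log2 fold change in LETS1 cells, with 95% intervals of -0.78 to -0.50 for SLC2A3, -0.73 to -0.37 for ADM and -0.49 to -0.22 for PDK4. The median difference was 0.0066 over the 38 and -0.005 over all genes tested. For the other 35 genes the intervals bound how far the responses may differ. Examples were -0.03 to 0.25 for NDRG1, -0.20 to 0.04 for EPAS1, -0.21 to 0.04 for SLC2A1 and -0.25 to -0.03 for PFKFB3. That of PFKFB3 excludes 0 without passing the adjustment (adjusted p = 0.468). The intervals of ANGPTL4 and ENO2, given above, reached farther from 0 than these. That of ENO2 also excludes 0 without passing the adjustment.

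**Figure D5:**
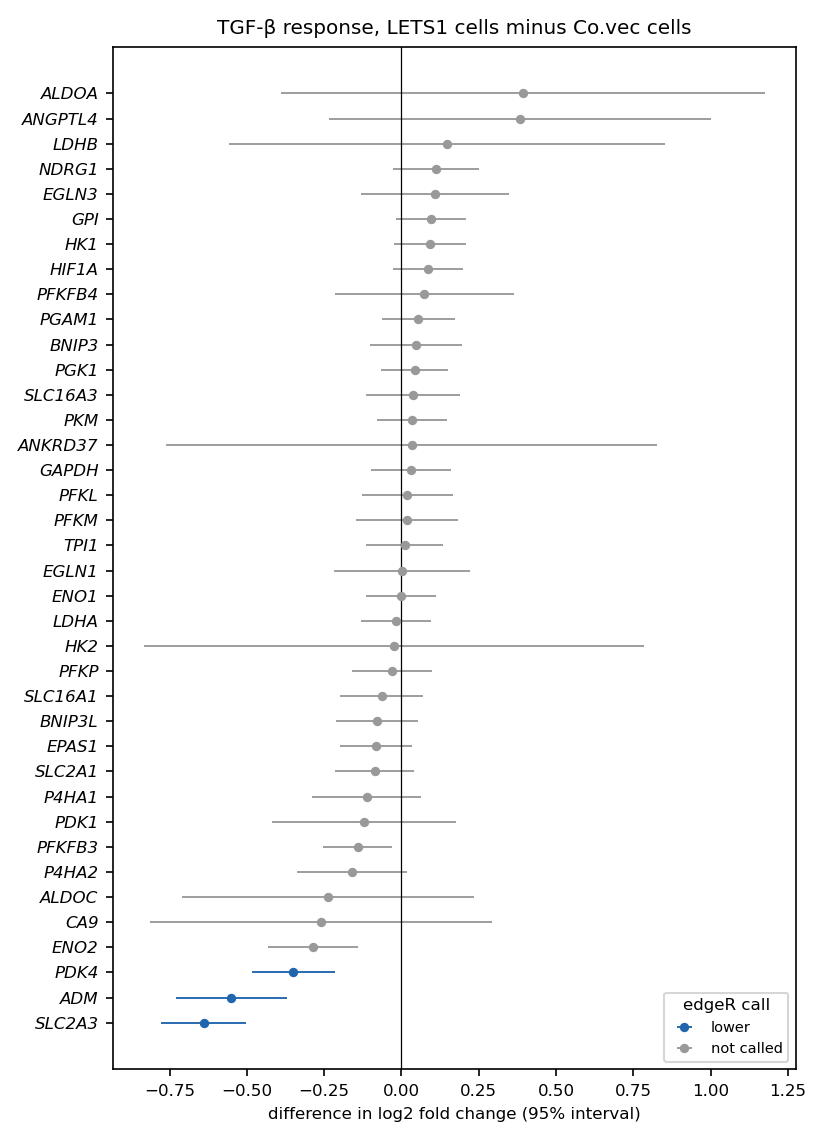
Difference between the log2 fold change of TGF-β in LETS1 cells and that in Co.vec cells, with its 95% interval, for the 38 genes ordered from positive to negative, blue where called lower. SLC2A3, ADM and PDK4 lie below 0 at the bottom and the intervals of most others span 0.

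Other genes of the same pathways were read from 3 further lists. Of 35 tested genes of glucose and pyruvate metabolism, 5 were called higher and 7 lower with TGF-β in LETS1 cells, and 8 higher and 6 lower in Co.vec cells. These shares of 34.3% in LETS1 and 40% in Co.vec cells lie near the 38.7% and 39.7% of all genes. BPGM, the bisphosphoglycerate mutase, rose by 1.33 in LETS1 and 0.95 in Co.vec cells, and TXNIP, an arrestin that removes glucose carriers from the membrane, had log2 fold changes of -0.86 in LETS1 and -1.10 in Co.vec cells, all called. SLC16A7, the lactate and pyruvate carrier MCT2, was higher in LETS1 than in Co.vec cells (1.35 with TGF-β and 1.19 in buffer) and fell with TGF-β in both vectors (-0.55 in LETS1 and -0.71 in Co.vec cells). PDP1 and PDP2, the phosphatases that undo the action of PDK4, were the 2 genes of this list whose TGF-β response was called different between the vectors. They are 5.71% of the 35 genes, against 0.679% of all genes, and the list was chosen with earlier results known. PDP1 had 30.0 ± 1.71 CPM in LETS1 and 29.3 ± 0.996 CPM in Co.vec cells with TGF-β and 27.4 ± 0.866 CPM in LETS1 and 18.6 ± 2.11 CPM in Co.vec cells in buffer (SD, n = 3 each), and was higher in LETS1 cells in buffer (log2 fold change 0.55, adjusted p = 2.09e-07). Its difference in response was -0.52 (SE 0.10, adjusted p = 0.00264). That of PDP2 was -0.41 (adjusted p = 0.0246) and was lost in 6 alternatives, with adjusted p from 0.0158 to 0.0998 over all of them, namely without LETS1 TGF-β replicate 1, LETS1 buffer replicate 2 or 3, Co.vec TGF-β replicate 2, or Co.vec buffer replicate 2 or 3.

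Of 35 tested genes of the HIF pathway and hypoxia response beyond the 38, 15 were called higher and 9 lower with TGF-β in LETS1 cells, and 14 higher and 6 lower in Co.vec cells. These are 68.6% of the list in LETS1 and 57.1% in Co.vec cells, against 38.7% and 39.7% of all genes, and the list was chosen with earlier results known. PPP1R3C, which brings protein phosphatase to glycogen, rose by 0.77 in LETS1 and 0.78 in Co.vec cells, and CITED2, which competes with HIF for its coactivators, fell, with log2 fold changes of -0.94 in LETS1 and -0.94 in Co.vec cells. HILPDA, a lipid droplet protein induced by hypoxia, also fell (-0.61 in LETS1 and -0.72 in Co.vec cells). In LETS1 against Co.vec cells 5 were higher and 2 lower with TGF-β, and 9 higher and 2 lower in buffer (20% and 31.4% of the list, against 14.1% and 15.1% of all genes), among them STC2, a secreted glycoprotein, at 0.57 with TGF-β and 0.62 in buffer. BHLHE40, a hypoxia-induced repressor, had a smaller response in LETS1 cells, with a difference of -0.55 (adjusted p = 1.10e-06). BHLHE40 had 430.1 ± 9.13 CPM in LETS1 and 403 ± 19.6 CPM in Co.vec cells with TGF-β and 341 ± 29.2 CPM in LETS1 and 219 ± 1.5 CPM in Co.vec cells in buffer (SD, n = 3 each).

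Of 31 genes of the ANGPTL family, lipases, lipid droplets and PPAR signalling 18 were tested, of which 4 were called higher and 3 lower with TGF-β in LETS1 cells, and 6 higher and 2 lower in Co.vec cells. These shares of 38.9% in LETS1 and 44.4% in Co.vec cells lie near the 38.7% and 39.7% of all genes. PPARD, the PPAR receptor that controls ANGPTL4 and PDK4 in muscle, rose by 0.83 in LETS1 and 0.76 in Co.vec cells, and PPARA, its relative of liver fat burning, fell, with log2 fold changes of -0.63 in LETS1 and -0.44 in Co.vec cells. LIPG, endothelial lipase, rose by 0.65 in LETS1 and 1.30 in Co.vec cells. PLIN2, the lipid droplet coat protein and a known PPAR target, fell with TGF-β (-0.75 in LETS1 and -0.53 in Co.vec cells) and was higher in LETS1 cells (0.31 with TGF-β and 0.52 in buffer). None of the 18 had a called difference between the TGF-β responses. Only 0.679% of all genes had one, so none among 18 says little about this list.

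Promoters were found in RefSeq for 34 of the 38 genes, all but SLC2A3, SLC16A1, NDRG1 and BNIP3L. ACGTG or GCGTG stood on either strand in 24 of the 34 (70.6%), against 48.4% of all 35116 promoters of the same length. ACGTG alone stood in 14 (41.2%, against 21.4%), GCGTG in 15 (44.1%, against 36.5%) and CAGAC in 15 (44.1%, against 45.3%). The median GC content was 69.7% for the 34 and 58.7% for all promoters, and the part of base composition in these shares was not tested.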

How the data were processed

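Per the submitters' processing notes, the authors' tools were cutadapt 2.10, STAR 2.7.5a and HTSeq 0.12.4 on GRCh38. The deposited values are raw counts of fragments per gene and library. Release of the annotation and strandedness of the counting were not given in the sources used here. The symbol of each Ensembl gene came from a gene name table, exon lengths and overlaps came from GENCODE release 29, and promoters from RefSeq. The 38 genes and the further lists were chosen with earlier results of these data known. All 38 were reported, and of each further list the called genes with the largest log2 fold changes, from which those printed were taken. Some results of these lists are not reported here. Rows that name no gene were left out of library sizes. In R 4.3.3 with edgeR 4.0.16, genes were filtered by filterByExpr (16192 kept), scaled by TMM and fitted with a robust quasi-likelihood model over all 12 libraries, with 1 mean per group. The 5 contrasts were each adjusted by Benjamini-Hochberg, and genes under 0.05 were called. Standard errors (SE) were derived from the log2 fold change and the F statistic of the same fit. The 95% intervals used a normal approximation without the degrees of freedom of the test, so they can be too narrow. CPM used TMM-scaled library sizes. The procedure was tested on simulated data. Spread between libraries of a group exceeded counting error in all 12 pairs (chi-square per degree of freedom 2.16 to 5.24). Alternatives were RLE size factors, no filter, a replicate block, DESeq2 1.42.0, a fit of the 6 libraries compared, and leaving out each library.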

Additional observations from a re-analysis of the deposited data

Results flagged for a closer look

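The TGF-β response differed between LETS1 and Co.vec cells for 3 of the 38 genes by the test of the difference itself, each given as the log2 fold change of TGF-β in LETS1 cells minus that in Co.vec cells. SLC2A3 differed by -0.64 (adjusted p = 9.73e-08), with a fall in LETS1 cells and a rise in Co.vec cells. ADM differed by -0.55 (adjusted p = 3.44e-04), and PDK4 by -0.35 (adjusted p = 0.00287), each with a larger fall in LETS1 cells. All 3 kept their call in every alternative run, with adjusted p of 7.40e-14 to 2.28e-06 for SLC2A3, 1.67e-06 to 0.00203 for ADM and 4.78e-04 to 0.0185 for PDK4. SLC2A3 started from a higher buffer level in LETS1 cells, while ADM and PDK4 were not called between the vectors in buffer. For ADM all LETS1 buffer libraries still lay above all Co.vec buffer libraries (log2 fold change 0.17, adjusted p = 0.0542). The causes were not tested.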

How the results depend on the processing

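Counts of called genes and of called members, in either direction together, stayed within 1.5 times the reported ones under every alternative run, for all 5 contrasts. By direction, the 13 genes called higher for the difference of responses became 8 to 28. The 1 member called lower in buffer became 2 with no filter and in a fit of the 6 libraries compared. Leaving out 1 library at a time gave 9 to 14 members and 1819 to 2611 genes for LETS1 against Co.vec in buffer, 8 to 12 and 1710.0 to 2401 with TGF-β, 20 to 24 and 5479 to 6477 for TGF-β in Co.vec cells, 18 to 22 and 5487 to 6485 for TGF-β in LETS1 cells, and 3 to 4 and 78 to 134 for the difference. Of the 67 called results of members, 55 kept their call in every alternative, 12 lost it in at least 1 and none turned its direction. Of the 30 called results printed for other genes, 29 kept their call in every alternative. Of 20 printed results of members that missed the threshold, 7 passed it in at least 1 alternative. The HK2 intervals given below are not among these 20. The TGF-β response of SLC16A3 in Co.vec cells changed sign, with log2 fold changes of -0.0056 to 0.0736 when 1 library was left out, and was not called in any. No pairing of libraries by replicate number was seen, as the correlation of residuals ran from -0.0573 to 0.0472 and exceeded 0.1 in 0 of 18 pairs. Such a correlation includes the counting noise of low genes, so it cannot exclude pairing. With the replicate number as a block, 12, 12, 22, 19 and 3 members were called in LETS1 against Co.vec in buffer, the same with TGF-β, TGF-β in Co.vec cells, TGF-β in LETS1 cells and the difference, and 2297, 2158, 6251, 6136 and 106 genes. The median of all genes moved by less than 0.02 under any scaling, though with no filter it is taken over more genes. Single members could move further with no filter. For TGF-β in LETS1 cells, LDHA went from 0.099 to 0.128 and ALDOC from -0.395 to -0.366 on the log2 scale. Genes near 1 CPM, such as HK2, ALDOA, LDHB and ANKRD37, had wide 95% intervals, which for HK2 with TGF-β ran from -1.10 to -0.09 in LETS1 and from -1.15 to 0.01 in Co.vec cells on the log2 scale.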
